A study of Homo sapiens with 6 samples.

Results

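Chromatin regulators and the DNA damage response gene SLFN11 were examined in H146 cells, an established small-cell lung cancer (SCLC) line, after knockdown of the mitotic kinesin KIFC1. The 10 genes were KMT2C, KMT2D, CREBBP, EP300, EZH2, KDM6A, KDM1A, ARID1A, SMARCA4 and SLFN11. They were chosen by symbol as regulators often mutated or targeted in SCLC, and all 10 were among the 28395 genes of the count table. Both groups received siRNA with a lipid transfection reagent, and RNA was collected on day 2. The control group had 3 libraries from cells given a scrambled control siRNA, and the siKIFC1 #2 group had 3 libraries from cells given siRNA sequence #2 against KIFC1. The comparison asks what loss of KIFC1 does to gene expression, and as a model it is limited to 1 cell line and 1 siRNA sequence, with no untransfected cells. The labels call the replicates biological, and each was grown in its own culture well. Whether they came from separate days is not stated, so p-values measure the spread between these samples.

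Chromatin regulators set which stretches of DNA can be read. KMT2C and KMT2D methylate histone H3 at enhancers, CREBBP and EP300 acetylate histones at enhancers and promoters, and EZH2 writes the repressive methyl mark of Polycomb complex 2, which KDM6A removes. KDM1A strips methyl groups from H3 within the CoREST repressor, and ARID1A and SMARCA4 belong to the SWI/SNF remodelers that slide nucleosomes. SLFN11 binds stressed replication forks and blocks them for good, and its level is used to gauge the response of SCLC to DNA-damaging drugs. In chemotherapy-resistant SCLC it can be silenced by EZH2.

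Total counts ran from 15392374 to 17754458 per library, with 19437 to 20472 genes detected and 8.34% to 13.1% of counts on mitochondrial genes. The siKIFC1 #2 replicate 2 library had both the most genes detected and the largest mitochondrial share. The control libraries held 14, 4 and 14 reads of KIFC1 and the knockdown libraries 1, 1 and 0, so KIFC1 followed the labels. Its level was low in every library, and 100% of the 32-base words of its mRNA also occur on the alternate sequences of GRCh38, a set of extra versions of some regions. Whether the alignment used them is not given in the sources used here. The neuroendocrine marker INSM1 was strongly expressed (613 to 818 CPM, counts scaled to a common library total), while NEUROD1, POU2F3 and YAP1 had at most 7 counts in any library. All 8 stromal and blood cell markers together came to 7.95 to 11.7 CPM in the control libraries and 8.88 to 12.2 CPM after knockdown. NEUROD1 is itself one of the 10 listed neuroendocrine markers. Those 10, INSM1 included, summed to 3110 to 3535 CPM in the control libraries. H146 therefore carried markers of a neuroendocrine line, though not all of those listed.

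In control cells, 9 of the 10 genes were clearly expressed and SLFN11 was nearly absent. Levels between genes were compared in TPM, which divide counts by gene length before scaling, here the union of all annotated exons. SMARCA4, the ATPase that drives the SWI/SNF complex, was the highest at 188 ± 8.93 TPM (SD, n = 3), above 96.1% of all genes with a length. CREBBP at 59.4 ± 8.26 TPM, EZH2 at 57.8 ± 3.09 TPM, KDM1A at 53.9 ± 1.83 TPM, ARID1A at 52.0 ± 4.64 TPM, EP300 at 43.7 ± 5.53 TPM and KMT2D at 34.3 ± 12.5 TPM followed (SD, n = 3). Along this middle stretch each gene overlapped its neighbor in the range of the 3 control libraries, so the order of neighbors is not resolved. Some genes further apart did not overlap. The lowest control values of CREBBP (54.2 TPM), EZH2 (54.5 TPM) and KDM1A (51.9 TPM) lay above the highest of EP300 (50.1 TPM) and KMT2D (48.8 TPM). KMT2C at 9.80 ± 2.26 TPM and KDM6A at 7.51 ± 0.44 TPM were lower and did not overlap each other (SD, n = 3). SLFN11 was last at 0.1001 ± 0.0481 TPM (SD, n = 3), above 29.8% of all genes with a length.

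The length chosen for a gene moved part of this order. With the canonical transcript in place of the exon union, a choice made after the data were seen, SMARCA4 stayed highest at 294 TPM and SLFN11 lowest at 0.0654 TPM. KDM1A moved up to 179 TPM and EZH2 to 131 TPM, each clear of its neighbors in the control libraries. The exon union of KDM1A spans 18325 bases against 3085 for its canonical transcript, and that of EZH2 10774 against 2654. ARID1A (54.0 TPM) and CREBBP (47.7 TPM) overlapped, as did EP300 (32.6 TPM) with KMT2D (23.7 TPM), KMT2D with KDM6A (19.1 TPM), and KDM6A with KMT2C (17.4 TPM). On either scale SMARCA4 led and SLFN11 closed the list.

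Several of these genes have a close relative with a related role, and both were compared in the control libraries. SMARCA4 stood 9.65-fold above SMARCA2, the alternative SWI/SNF ATPase, per exon-union length (8.12-fold with the canonical transcript). EZH2 stood 3.07-fold above EZH1, the other Polycomb methyltransferase (8.27-fold with the canonical transcript). CREBBP stood 1.36-fold above EP300 (1.46-fold with the canonical transcript). KMT2C was at 0.292 of the level of KMT2D (0.750 with the canonical transcript), and KDM6A at 0.159 of that of KDM6B, a demethylase of the same mark (0.659 with the canonical transcript). The order of the other pairs was less settled. KDM1A and its relative KDM1B had a ratio of 1.01 per exon-union length and 4.86 with the canonical transcript. ARID1A to ARID1B, the alternative DNA-binding subunit, was 2.22 on the first scale and 0.925 on the second, which turns the direction.

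**Figure D1:**
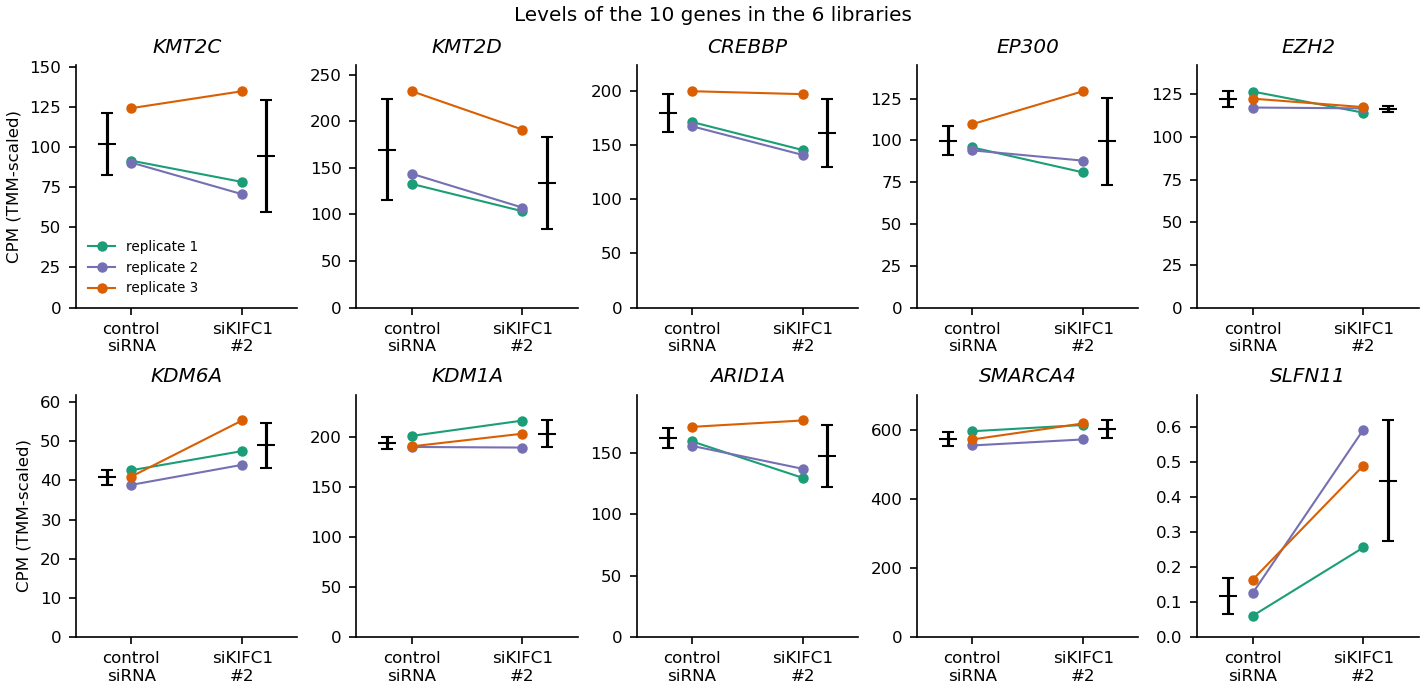
Each panel shows 1 gene, with CPM scaled by edgeR's TMM method on the vertical axis from 0 and both groups on the horizontal axis; lines join libraries with the same replicate number, and black bars give the group mean ± SD (n = 3). Replicate 3 is the highest in both groups for KMT2C, KMT2D, CREBBP, EP300 and ARID1A, and KDM6A and SLFN11 are the panels where the groups do not overlap.

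After KIFC1 knockdown, 0 of the 9 regulators that passed the filter on low counts changed by the quasi-likelihood test of edgeR (adjusted p under 0.05, Benjamini-Hochberg method over 14777 genes). Over all genes tested 0.697% were called, 0.325% higher and 0.372% lower. DESeq2 and limma-voom also called 0 of the 9. At an unadjusted p under 0.05, 1 regulator (KDM6A) stood out, beside 9.26% of all genes. The fitted log2 fold change was positive for 3 regulators and negative for 6, with a median of -0.07 against 0.01 over all genes, and the median size of the change was 0.11 against 0.13. Of the 9, 1 (KDM6A) had groups that did not overlap in CPM, whereas 15.5% of all genes did not overlap, 7.52% lower and 7.99% higher after knockdown. In bulk RNA, fewer cells expressing a gene and less RNA per cell cannot be told apart.

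The libraries with the same replicate number deviated together, and a fit with the replicate number as a block narrowed the intervals. With the block, 5.83% of all genes were called, 2.75% higher and 3.07% lower. Of the 9 regulators 1 was called, KMT2D, which was lower. The call of the other 8 was the same in both fits.

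**Figure D2:**
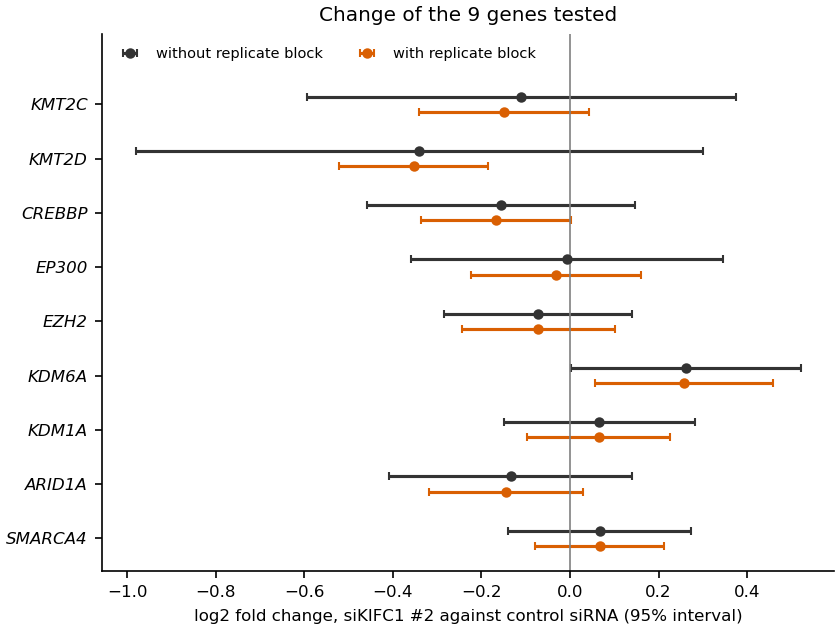
The horizontal axis gives the log2 fold change of siKIFC1 #2 against control siRNA for the 9 genes tested, with bars for the 95% interval, in the fits without (black) and with (orange) the replicate block. With the block, the interval of KMT2D runs from -0.52 to -0.19; without it, it runs from -0.98 to 0.30.

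KMT2D (chr12:49018975-49060794, GRCh38, minus strand) encodes a large H3 methyltransferase of enhancers. Its control libraries had 133, 144 and 233 CPM, and its siKIFC1 #2 libraries 104, 107 and 191 CPM. Replicate 3 was far above the others in both groups, so the groups overlapped although each siKIFC1 #2 library lay below the control library of its number. Within replicate numbers the log2 ratio was -0.36, -0.42 and -0.28. Across groups the log2 fold change was -0.34 (SE 0.28, 95% interval -0.98 to 0.30, edgeR adjusted p 0.814), and with the replicate block it was -0.35 (SE 0.08, 95% interval -0.52 to -0.19, edgeR adjusted p 0.00697). Over the alternatives without the block the edgeR, DESeq2 or limma-voom adjusted p never fell below 0.273. Its log2 fold change was -0.69 when siKIFC1 #2 replicate 3 was left out and -0.04 when control siRNA replicate 3 was.

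KMT2C (chr7:152134922-152436644, minus strand), the sister methyltransferase, had 91.4, 90.2 and 124 CPM in the control libraries and 78.2, 70.5 and 135 CPM after knockdown. Replicate 3 was again the highest, and it lay above its control while replicates 1 and 2 lay below theirs. The log2 fold change was -0.11 (SE 0.22, 95% interval -0.59 to 0.38, edgeR adjusted p 0.943). Its sign depended on single libraries: leaving out siKIFC1 #2 replicate 3 gave -0.46, and leaving out control siRNA replicate 3 gave 0.06. Of the 32-base words of its mRNA, 9.61% are repeated on the main chromosomes, so part of its counts could be shared with near-identical copies.

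CREBBP (chr16:3725054-3880713, minus strand), a histone acetyltransferase, had 171.5, 167.6 and 200.01 CPM with control siRNA and 145.6, 141.1 and 197.3 CPM with siKIFC1 #2. It lay below its control within each replicate number, though hardly so in replicate 3. The log2 fold change was -0.16 (SE 0.14, 95% interval -0.46 to 0.15, edgeR adjusted p 0.828). EP300 (chr22:41092592-41180077, plus strand), its paralogue, had 95.9, 94.1 and 110 CPM in the control group and 80.9, 87.9 and 130 CPM after knockdown. Replicate 3 lay above its control and replicates 1 and 2 below theirs, and the log2 fold change was -0.01 (SE 0.16, 95% interval -0.36 to 0.35, edgeR adjusted p 0.997). Without siKIFC1 #2 replicate 3 it was -0.24, and without siKIFC1 #2 replicate 1 it was 0.12.

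EZH2 (chr7:148807257-148884321, minus strand), the Polycomb methyltransferase, was among the steadiest of the 9. It had 127, 117 and 122 CPM in the control libraries and 114, 117 and 117 CPM after knockdown. These ranges overlapped, and the log2 fold change was -0.07 (SE 0.10, 95% interval -0.28 to 0.14, edgeR adjusted p 0.902). The interval leaves room for a decrease to 0.821-fold or an increase to 1.10-fold. Of the genes tested, NTNG1, TSC22D1-AS1 and PAQR5 had the pattern over the 6 libraries most like that of EZH2 (Pearson's r of log2 CPM 0.976, 0.968 and 0.966), and 25 genes reached 0.9. These are descriptions over 6 libraries of both groups.

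KDM6A (chrX:44873188-45112779, plus strand), the demethylase that opposes EZH2, had 42.6, 38.9 and 41.0 CPM in the control libraries and 47.51, 43.997 and 55.35 CPM after knockdown. Every siKIFC1 #2 library lay above every control library, and within replicate numbers the log2 ratio was 0.16, 0.18 and 0.43. The log2 fold change was 0.26 (SE 0.12, 95% interval 0.0029 to 0.52), with an unadjusted edgeR p of 0.0478 that did not hold after adjustment (0.528; 0.137 with the replicate block). Leaving out each library in turn kept it positive, from 0.16 without siKIFC1 #2 replicate 3 to 0.33 without siKIFC1 #2 replicate 2. KDM1A (chr1:23019443-23083689, plus strand), the CoREST demethylase, had 201, 190 and 190 CPM with control siRNA and 216, 189 and 203 CPM with siKIFC1 #2. Its groups overlapped, with a log2 fold change of 0.07 (SE 0.10, 95% interval -0.15 to 0.28, edgeR adjusted p 0.913).

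ARID1A (chr1:26693236-26782104, plus strand), the DNA-binding subunit of SWI/SNF, had 160, 156 and 171 CPM in the control libraries and 130, 137 and 177 CPM after knockdown. Replicates 1 and 2 lay below their controls and replicate 3 slightly above, and the log2 fold change was -0.13 (SE 0.13, 95% interval -0.41 to 0.14, edgeR adjusted p 0.845). SMARCA4 (chr19:10960932-11079426, plus strand), the ATPase, had 597, 556 and 573 CPM with control siRNA and 615, 573 and 620 CPM with siKIFC1 #2. It lay slightly above its control within every replicate number, with a log2 fold change of 0.07 (SE 0.09, 95% interval -0.14 to 0.27, edgeR adjusted p 0.906). Neither difference passed the test.

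SLFN11 (chr17:35350305-35373701, minus strand) was the exception in level and fell below the filter on low counts. Control libraries held 1, 2 and 3 of its reads (0.0600, 0.125 and 0.163 CPM), and knockdown libraries held 4, 9 and 8 (0.255, 0.593 and 0.490 CPM). Every knockdown library held more SLFN11 reads than any control library, from 1 to 3 against 4 to 9. The summed counts were 6 and 21, a ratio of rates of 3.78 with an exact 95% interval of 1.48 to 11.5 that covers counting error and not the spread between replicates. A two-sided exact permutation test over the libraries gave p = 0.1, the smallest that 3 against 3 allows. Fitted without the filter, its log2 fold change was 1.85 (SE 0.75) with an edgeR adjusted p of 0.404, so the difference is not established at this depth.

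The library with the most SLFN11 reads, siKIFC1 #2 replicate 2, was also the one with the most genes detected. Without it, 6 control reads stood against 12, a ratio of 3.19 (exact 95% interval 1.11 to 10.4). Of the 32-base words of the SLFN11 mRNA, 17.3% are repeated on the main chromosomes, and where the repeats lie was not looked up. The other 5 Schlafen genes listed did not pass the filter either, 4 of them with at most 3 counts in every library, and SLFN13 had up to 6. The genes with the pattern over the 6 libraries most like that of SLFN11 were USP18, FGF18 and FUCA1 (Pearson's r of log2 CPM 0.994, 0.992 and 0.989), and 159 genes reached 0.9. With single reads setting most of the SLFN11 values, this likeness is a description only. Of the 15 listed interferon response genes, a set that interferon induces as it can SLFN11, 11 were tested and 0 were called in either fit, from IFIT3 (log2 fold change -0.86, edgeR adjusted p 0.504) to ISG15 (0.39, edgeR adjusted p 0.719). At an unadjusted p under 0.05, 1 of them stood out.

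The spread between replicates followed the length of the transcript. Replicate 3 minus the mean of replicates 1 and 2, in log2 CPM, was 0.75 in control and 0.86 in siKIFC1 #2 cells for KMT2D, whose canonical transcript of 20635 bases is the longest of the 9. KMT2C (16860 bases) had 0.45 and 0.86, CREBBP (10790 bases) 0.24 and 0.46, EP300 (8779 bases) 0.21 and 0.62, and ARID1A (8595 bases) 0.12 and 0.40. At the short end, EZH2 (2654 bases) had 0.01 and 0.02, KDM1A (3085 bases) -0.04 and 0.01, and SMARCA4 (5577 bases) -0.01 and 0.06. KDM6A (6094 bases) had 0.01 and 0.28. Across the 9 genes Spearman's rho with length was 0.95 in the control and 0.97 in the siKIFC1 #2 libraries, and across all 14325 genes with a length it was 0.434 and 0.507. Genes share these libraries and are not independent replicates.

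In all genes, the median deviation of replicate 3 ran from -0.19 in control and -0.28 in siKIFC1 #2 cells for transcripts of up to 1000 bases to 0.34 and 0.51 for those over 16000 bases. The difference between groups moved less with length. Its median log2 fold change was 0.07 for transcripts of up to 1000 bases and -0.07 for the 87 genes over 16000 bases. In this longest class, 10.3% of genes had a log2 fold change at or below that of KMT2D, and 11.01% of the 1117 genes from 8000 to 16000 bases did. The part of transcript length in the KMT2D result was not tested.

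**Figure D3:**
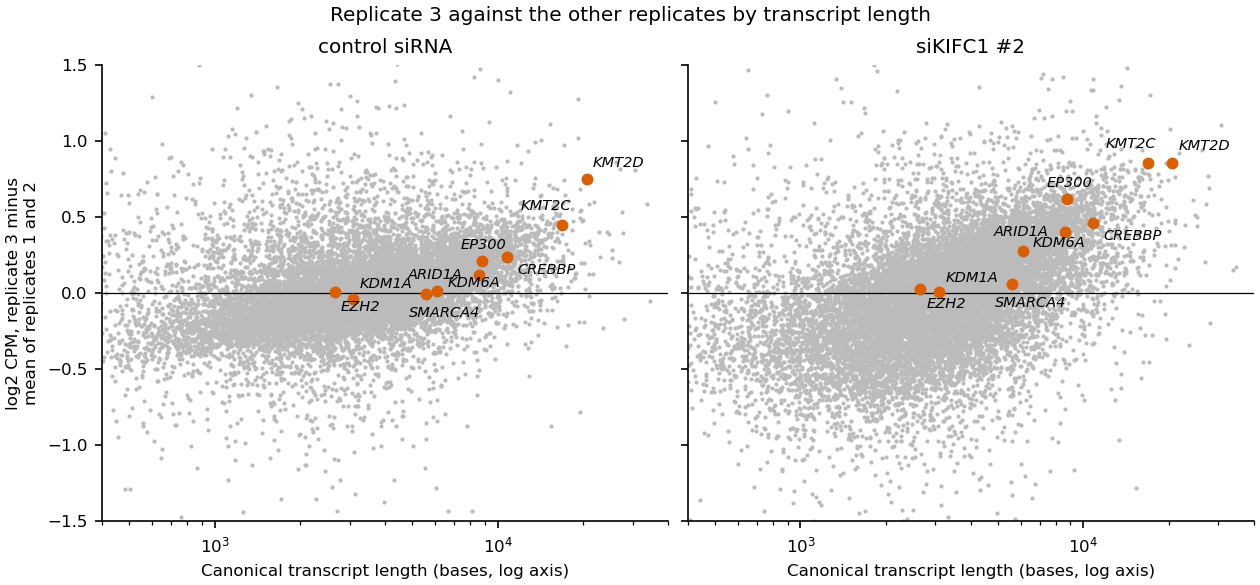
Log2 CPM of replicate 3 minus the mean of replicates 1 and 2 is plotted against canonical transcript length in bases (log axis) for control siRNA (left) and siKIFC1 #2 (right); grey points are all genes tested that have a length, and orange points are the 9 regulators. KMT2D and KMT2C lie at the upper right in both panels (0.75 and 0.45 on the left, 0.86 and 0.86 on the right), and EZH2 lies near 0; 193 and 227 of 14325 genes fall outside the axes.

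The balance within pairs of related genes was compared as a log2 ratio inside each library, which does not depend on how libraries are scaled. For 7 pairs, 0 differences reached p under 0.05 in a two-sided exact permutation test, which cannot go below 0.1 here. The lowest p was 0.1 (0.233 adjusted over the 7 pairs). The largest difference was that of KDM6A to KDM6B, 0.38, from -2.65 ± 0.08 to -2.27 ± 0.20 (SD, n = 3, exact permutation p = 0.1). KDM1A to KDM1B went the other way, from 0.02 ± 0.07 to -0.28 ± 0.18 (SD, n = 3, exact permutation p = 0.1), as did ARID1A to ARID1B, from 1.15 ± 0.04 to 1.04 ± 0.09 (SD, n = 3, exact permutation p = 0.1). In these 3 pairs the library values of the groups did not overlap. KDM6A and KDM1B also had groups that did not overlap in CPM on their own. The share of other gene pairs without overlap was not computed. KMT2C to KMT2D, where replicate 3 shifts both genes, differed by 0.20 (exact permutation p = 0.2), CREBBP to EP300 by -0.13 (exact permutation p = 0.3), SMARCA4 to SMARCA2 by 0.12 (exact permutation p = 0.4) and EZH2 to EZH1 by 0.08 (exact permutation p = 0.9). SLFN11 to SLFN5 was not computed, since SLFN5 had at most 1 count in any library.

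The complexes around the 9 regulators were described by lists that leave out the 9 themselves. In 6 lists of other chromatin regulators, 91 of 96 genes were tested, 35 with a positive and 56 with a negative log2 fold change. Over all genes tested, 7698 were positive and 7079 negative. The median over all genes was -0.02 for transcripts of 4000 to 8000 bases and -0.08 for those of 8000 to 16000 bases. The part of transcript length in the signs of the lists was not tested. Of the 91 listed genes, HDAC1 was the 1 called, higher after knockdown (background 0.325%), and 0 were lower (background 0.372%). With the replicate block 2 were higher, HDAC1 and KDM1B (background 2.75%), and 4 were lower, BRD3, NCOA3, KAT6A and KDM2A (background 3.07%). NCOA3, KAT6A and KDM2A are named because the block called them, which was known when they were chosen.

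HDAC1, a histone deacetylase that works with KDM1A in CoREST, had 104, 89.0 and 91.0 CPM in the control libraries and 160, 143 and 135 CPM after knockdown. All knockdown libraries lay above all controls. Its log2 fold change was 0.63 (SE 0.11, 95% interval 0.38 to 0.87, edgeR adjusted p 0.0272; 9.39e-06 with the replicate block). Leaving out single libraries gave values of 0.56 to 0.70, but the edgeR adjusted p rose above the threshold in 5 of those 6 fits, to at most 0.198, and without siKIFC1 #2 replicate 3 it was 0.0016. Of the 32-base words of the HDAC1 mRNA, 4.84% are repeated on the main chromosomes. The CoREST list with its DNA-binding partners, HDAC1 included, had 8 positive and 4 negative values among the 12 tested.

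BRD3, a reader of acetylated histones, had 62.2, 56.4 and 65.8 CPM with control siRNA and 41.4, 33.3 and 46.7 CPM with siKIFC1 #2. The groups did not overlap, and the log2 fold change was -0.60 (SE 0.14, edgeR adjusted p 0.0746; 0.000104 with the replicate block). DESeq2 also called BRD3 (adjusted p 0.00491), as did edgeR with no filter (adjusted p 0.00248) and without siKIFC1 #2 replicate 3 (adjusted p 0.00377). The fit without siKIFC1 #2 replicate 3 called 468 of all genes. With any other single library left out BRD3 was not called (edgeR adjusted p up to 0.403), and limma-voom gave an adjusted p of 0.0734. NCOA3, a co-activator that recruits CREBBP and EP300, had 38.1, 42.8 and 53.5 CPM against 25.1, 31.3 and 42.6 CPM. Its groups overlapped through replicate 3, with a log2 fold change of -0.44 (edgeR adjusted p 0.473; 0.00393 with the replicate block; 0.0256 without siKIFC1 #2 replicate 3). KAT6A, another acetyltransferase, had a log2 fold change of -0.32 (edgeR adjusted p 0.610; 0.0199 with the replicate block; 0.0179 without siKIFC1 #2 replicate 3). NCOA3 and KAT6A were not called by edgeR with any other single library left out, where their log2 fold changes reached -0.28 and -0.17. Of the 19 acetylation genes tested, 6 had positive and 13 negative values, and the highest was BRD2 at 0.69 (edgeR adjusted p 0.458), whose mRNA shares 98.1% of its 32-base words with alternate sequences.

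KDM1B, the relative of KDM1A, had 63.4, 54.5 and 58.1 CPM in control cells and 76.6, 64.5 and 87.2 CPM after knockdown, with no overlap. Its log2 fold change was 0.38 (edgeR adjusted p 0.316; 0.0169 with the replicate block). KDM1B was not called with any single library left out (lowest edgeR adjusted p 0.141) or by DESeq2 (adjusted p 0.217). KDM2A, a demethylase that binds unmethylated CpG islands, had 158, 183 and 192 CPM against 132, 141 and 167 CPM, a log2 fold change of -0.28 (edgeR adjusted p 0.509; 0.0390 with the replicate block). KDM2A was likewise not called with any single library left out (lowest edgeR adjusted p 0.0613) or by DESeq2 (adjusted p 0.462). The 12 demethylases were split evenly, with 6 positive and 6 negative values, down to -0.29 for KDM2B (edgeR adjusted p 0.329; 0.0570 with the replicate block).

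The remaining lists had no call in either fit. Among 15 COMPASS and MLL genes, the complexes of KMT2C and KMT2D, 3 values were positive and 12 negative, from KMT2B at -0.22 to NCOA6 at 0.20. Of the Polycomb genes 4 were positive and 5 negative, from JARID2 at -0.14 to RBBP4 at 0.09. For SWI/SNF, 8 were positive and 16 negative, from SS18L1 at -0.24 to BCL7B at 0.25. The core subunit SMARCB1 had 0 to 2 counts in every library, and 100% of the words of its mRNA also lie on alternate sequences, so its absence was not taken as a measured level.

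**Figure D4:**
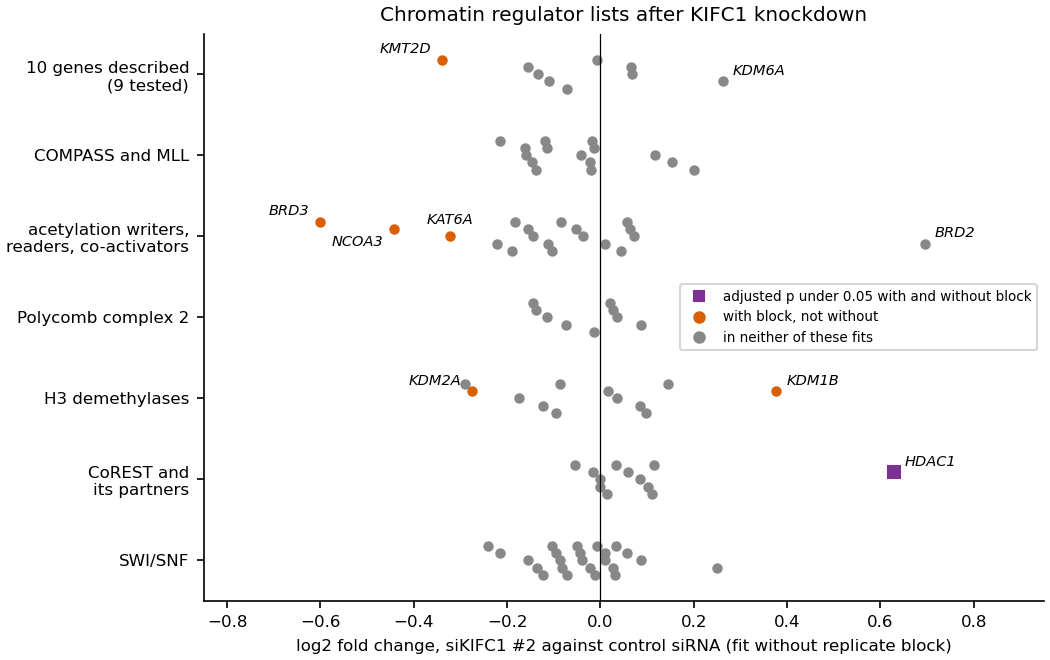
Each point is 1 gene tested, placed by its log2 fold change (siKIFC1 #2 against control siRNA, fit without the block) on the horizontal axis and by its list on the vertical axis; vertical offsets within a list only separate points. HDAC1 at 0.63 (purple square) is called in the fits with and without the replicate block, 6 genes (orange), KMT2D among them, in the fit with the block and not in that without it, and the grey points other than BRD2 (0.69) lie between -0.29 and 0.26.

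Short words in the 3′ UTR were counted in the same genes. The words GAGATCT and GCAACC came out of a scan of these same libraries, so their counts here are a description and not independent evidence. They were looked for on the transcript strand of the canonical transcript only, and the pair cannot overlap, since neither begins with letters that end the other. GAGATCT occurs in the 3′ UTR of 8.97% of 12972 genes tested with a 3′ UTR of at least 50 bases, and GCAACC in 23.2%. The 3′ UTRs differ in length, and a longer one holds more words. GAGATCT was found in 0 of the 9 regulators, in 4 of the 4 listed genes lower with the block, in 0 of the 2 higher and in 6 of 85 others. The stretches in BRD3 (chr9:134033416-134033444, minus strand), NCOA3 (chr20:47654950-47654978, plus strand) and KDM2A (chr11:67255582-67255610, plus strand) are shown as examples from the lower genes (the KAT6A match is not printed), with the word in capitals (GRCh38, GENCODE 44, 5′ to 3′).
BRD3: ttcataggtcaGAGATCTatcttgtgtgt
NCOA3: aatcccatattGAGATCTcgagtagaatc
KDM2A: ctggtgctgttGAGATCTcccaaacctca

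GCAACC was found in 2 of the 9 regulators, CREBBP and KDM6A, in 2 of the 2 listed genes higher with the block, in 2 of the 4 lower and in 18 of 85 others. The stretches in the higher genes HDAC1 (chr1:32333295-32333322, plus strand) and KDM1B (chr6:18222781-18222808, plus strand) and in the regulators KDM6A (chrX:45111516-45111543, plus strand) and CREBBP (chr16:3725274-3725301, minus strand) are shown to set genes with and without a call side by side, with the word in capitals (GRCh38, GENCODE 44, 5′ to 3′).
HDAC1: gatacttttatGCAACCataagacaaac
KDM1B: ccttaattttgGCAACCactagcaaaaa
KDM6A: actgtgtctatGCAACCttccaagtgcg
CREBBP: ctgcatcctgtGCAACCgtcttgggcaa

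The bases on either side of the word differ among these 4 genes. KDM6A with the word had a log2 fold change of 0.26, and CREBBP with the word had -0.16. Over all genes, the median log2 fold change was -0.11 with GAGATCT and 0.02 without, and 0.03 with GCAACC and 0.01 without. A match says that these letters are present in the window and nothing about what binds there.

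Markers of cell state were read beside these results. The 10 neuroendocrine markers summed to 3110 to 3535 CPM in the control libraries and 3267 to 3780 CPM after knockdown, with 7 positive and 2 negative values among 9 tested. NCAM1, a neural adhesion molecule, had a log2 fold change of -0.42 (edgeR adjusted p 0.137; 0.000646 with the replicate block). CHGA, a granule protein, had the highest value of the list at 2.00 (edgeR adjusted p 0.436), with 100% of its words on alternate sequences. The 10 non-neuroendocrine and tuft markers summed to 15.3 to 19.9 CPM in control and 18.7 to 26.5 CPM after knockdown, and of the 3 tested 0 were called, from HES1 at 0.24 to ASCL2 at 0.47. Of the 4 stromal and blood markers tested 0 were called, from COL3A1 at -0.51 to COL1A1 at 0.33. The part of these markers in the values of the 10 genes was not tested.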

How the data were processed

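The authors aligned RNA-seq reads to GRCh38 with HISAT2 2.2.1 and deposited whole counts per gene from featureCounts 2.0.8, without normalization. Annotation, strand setting and treatment of multiply aligned reads are not given in the sources used here. Gene IDs were matched to symbols (27745 of 28395, leaving 0.0618% of counts) and to GENCODE 44.

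Genes were kept by filterByExpr (by group, with KIFC1 kept), scaled by TMM and tested by a robust quasi-likelihood fit in edgeR 4.0.16 (R 4.3.3). The Benjamini-Hochberg method adjusted p over 14777 genes, with a threshold of 0.05. The biological coefficient of variation was 13.1%. CPM use TMM-scaled library sizes, and TPM use exon lengths. SE is the absolute log2 fold change over the square root of F. A gene with at most 3 counts in a library was taken as at the floor, which, like the 95% intervals of counts, covers counting error only. Paralogue ratios used 0.5 added counts, and likeness 0.1 added CPM. Sequence words of 32 bases were looked up on 261 alternate sequences.

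Each group's libraries carry replicate numbers 1 to 3. After removal of group means, libraries of the same number correlated over 11409 genes at 0.492, 0.418 and 0.499, and of different numbers at -0.474 to 0.0431, so the numbers were taken as pairs from the data. With group means removed, positive values for the same number tend to force negative ones for different numbers. That contrast is therefore partly built in. The labels do not say what a number marks.

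The 10 genes, the lists and the tests were chosen with earlier results of these data known. All 10 are named, with their paralogues, each list's lowest and highest log2 fold change and any called gene. Genes called with the block and not in the main test are named outside this rule. Some genes that the rule would name are not reported here.

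On simulated data for the same comparison (14619 genes), the test recovered 95.1% of 102 genes set to a log2 fold change of 1 and 34.7% of 98 set to 0.5, with 7 unchanged genes called. Changes were set only in genes above a minimum mean CPM. Each simulated library was drawn independently, so the deviation shared by libraries of the same replicate number was left out. The shares recovered therefore do not extend to genes of low level. Alternatives were DESeq2 1.42.0, limma-voom (limma 3.58.1), no filter, a filter of 10 counts per library, scaling by library size or by DESeq2 size factors, the replicate block, each library left out, and, added after seeing the data, canonical transcript length. Tables were made in Python 3.11.15 with pandas 2.3.3, scipy 1.17.1 and numpy 2.4.6, and figures with matplotlib 3.10.9.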

Additional observations from a re-analysis of the deposited data

How the results depend on the processing

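Of the 9 regulators tested, 0 were called under every alternative except the replicate block, which called 1, KMT2D. The block changed no other call among the 9, and it added 5 calls among the other listed regulators, from 1 to 6. DESeq2 and the fit with no filter each called 2 of these, and leaving out each library gave 0 to 4. Over all genes the count of 103 moved to 270 with DESeq2, 265 with no filter and 861 with the block, and leaving out each library gave 24 (without control siRNA replicate 3) to 468 (without siKIFC1 #2 replicate 3). The sign was not stable for KMT2C (-0.46 to 0.057 with a library left out, positive in 3 of 6), EP300 (-0.24 to 0.12, positive in 3 of 6) and the ratio of EZH2 to EZH1 (-0.026 to 0.22). HDAC1 kept its sign but lost its call in 5 of 6 such fits. With 3 pairs, the sign-flip test of the paralogue ratios cannot go below 0.25. The cause of these shifts was not tested. At 3 libraries a group, a log2 fold change of 0.5 was often missed on simulated data, and the fitted changes of the 9 regulators were smaller than that. SLFN11, with 1 to 9 counts a library, is limited by depth.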
